A study of Mus musculus with 3 samples.

Results

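The genes described here are 39 genes of the cell division cycle: cyclins, cyclin-dependent kinases (CDKs) and their inhibitors, the MCM replicative helicase and other replication genes, and genes of mitosis. They were chosen by name and function, found on the array through the RefSeq accession of each probe, and measured for 34 of the 39. A gene was kept where it had a non-control probe well above background in at least 1 dye channel on all 3 arrays, and its brightest kept probe stands for it. The same rule left 19328 features on the whole array.

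Brown adipose tissue is the fat depot that makes heat. Its RNA was taken whole from male mice aged 10 weeks and kept on regular chow. On each of 3 arrays an Ad-Lkb1 sample labelled with Cy5 was set against a wild-type littermate sample labelled with Cy3, which gives 3 biological replicates of each genotype. Ad-Lkb1 samples carry the strain name C57BL/6J and wild-type samples C57BL/6, and all arrays ran in 1 dye orientation, so genotype, strain name and dye cannot be told apart. Lkb1 is the kinase encoded by Stk11. The way Lkb1 was deleted, the cells in which it was deleted and whether animals were pooled are not given in the sources used here. Values are log2 ratios, Ad-Lkb1 over wild type, listed in the order of arrays 1, 2 and 3, and a positive ratio is a higher level in Ad-Lkb1. In whole tissue, fewer cells of a type and less RNA per cell cannot be told apart.

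Stk11 itself had ratios of -1.27, -1.17 and -1.17, lower in Ad-Lkb1 on each array (mean -1.20 ± 0.056, SD, n = 3; limma adjusted p = 0.0105). Ucp1, which encodes the uncoupling protein that defines brown adipocytes, had ratios of 1.69, 1.39 and 1.35 (limma adjusted p = 0.0114). Across all features, 923 were higher (4.78%) and 758 lower (3.92%) in Ad-Lkb1 at an adjusted p of 0.05. No spot was saturated, and the arrays had median green signals of 51.0 to 53.5 over backgrounds of 43.0 to 44.0, so many probes lay close to background. The wild-type sample of array 3 stood apart from the other wild-type samples in several gene groups, so the members' calls, and those of the gene lists set beside them, are given with and without that array.

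In a dividing cell, D-type cyclins with CDK4 and then cyclin E with CDK2 inactivate the retinoblastoma protein, which frees E2F factors to switch on the replication genes. Genes of mitosis follow later and are controlled largely through the DREAM and MuvB complexes, which read a short promoter element named CHR, and through NF-Y, which reads CCAAT. CDK inhibitors such as p21 and p27 hold the cycle back. Mature brown adipocytes rarely divide, and dividing cells in this depot are known to include adipocyte precursors, endothelial cells and immune cells.

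The members were grouped by their role in the cycle, a grouping made after their values were seen: 25 measured genes of replication and mitosis, and 9 measured genes of the G1 phase. Upstream sequences of 8 members are shown first because they carry, or lack, the elements named above. They come from RefSeq on GRCm38.p6, whose table gave a promoter window for 31 members (35 windows), each from 250 bases before to 50 bases after the start of a gene. Each sequence ends just before the start used for its window or, for Mki67 and Mcm5, where the annotated gene begins earlier, just before that earlier edge. Each reads 5′ to 3′ on the gene's strand, and has in capitals every CCAAT or its reverse ATTGG, every CHR match TTTGAA or its reverse TTCAAA, and every E2F match TTTGGCGC or TTTCGCGC or their reverses GCGCCAAA and GCGCGAAA. The proliferation and mitosis genes Mki67 (chr7:135716451-135716579, minus strand), Ccnb2 (chr9:70421555-70421754, minus strand), Cdc20 (chr4:118437344-118437543, minus strand) and Ube2c (chr2:164769729-164769928, plus strand) each held both CCAAT and CHR matches:
Mki67: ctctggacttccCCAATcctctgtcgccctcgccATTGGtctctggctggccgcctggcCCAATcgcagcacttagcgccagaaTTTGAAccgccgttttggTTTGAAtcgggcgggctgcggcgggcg
Ccnb2: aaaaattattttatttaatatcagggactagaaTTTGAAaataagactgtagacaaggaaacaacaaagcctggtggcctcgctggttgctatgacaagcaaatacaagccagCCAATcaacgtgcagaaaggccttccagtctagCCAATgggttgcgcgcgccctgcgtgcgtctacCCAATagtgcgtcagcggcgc
Cdc20: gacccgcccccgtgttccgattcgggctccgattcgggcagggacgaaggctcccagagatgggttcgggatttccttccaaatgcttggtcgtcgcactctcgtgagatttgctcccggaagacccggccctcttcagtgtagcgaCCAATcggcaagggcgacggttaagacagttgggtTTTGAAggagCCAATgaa
Ube2c: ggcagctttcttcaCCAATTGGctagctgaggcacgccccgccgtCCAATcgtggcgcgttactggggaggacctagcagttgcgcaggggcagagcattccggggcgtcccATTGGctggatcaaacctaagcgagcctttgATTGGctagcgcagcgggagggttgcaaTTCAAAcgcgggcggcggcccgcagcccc
The helicase genes Mcm5 (chr8:75109309-75109467, plus strand) and Mcm6 (chr1:128359706-128359905, minus strand) held E2F matches, which overlap each other in Mcm5 and in part in Mcm6, and CCAAT or its reverse elsewhere in the stretch:
Mcm5: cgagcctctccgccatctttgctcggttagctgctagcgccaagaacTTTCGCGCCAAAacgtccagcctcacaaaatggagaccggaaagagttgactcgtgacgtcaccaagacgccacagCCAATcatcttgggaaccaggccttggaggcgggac
Mcm6: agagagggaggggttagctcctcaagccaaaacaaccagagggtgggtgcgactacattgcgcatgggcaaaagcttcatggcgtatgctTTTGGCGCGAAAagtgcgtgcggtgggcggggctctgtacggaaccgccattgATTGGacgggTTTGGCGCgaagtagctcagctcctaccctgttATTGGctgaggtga
The G1 genes Cdk4 (chr10:127063335-127063534, plus strand) and Cdkn1a (chr17:29090779-29090978, plus strand) are the members past the threshold and held none of these letters in the stretch shown:
Cdk4: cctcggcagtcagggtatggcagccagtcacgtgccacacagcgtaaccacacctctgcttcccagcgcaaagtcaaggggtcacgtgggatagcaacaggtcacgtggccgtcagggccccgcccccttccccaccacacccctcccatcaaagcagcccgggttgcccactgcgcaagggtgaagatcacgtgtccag
Cdkn1a: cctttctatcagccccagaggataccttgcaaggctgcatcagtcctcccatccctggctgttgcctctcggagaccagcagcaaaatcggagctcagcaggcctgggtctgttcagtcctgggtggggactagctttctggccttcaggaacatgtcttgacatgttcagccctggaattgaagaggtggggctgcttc

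The table held 25 windows for 24 of the replication and mitosis members, measured or not: Cdk1, Bub1 and Kif11 are among them, and Ccna2, Mcm4, Kif20a and Tpx2 are not. Over whole windows, CCAAT in either direction was found in 22 of the 25 (88%), against 37.4% of all 32851 windows in the table. The CHR letters were found in 11 of the 25 (44%), always in a window that also held CCAAT, against 17.9% of all windows for CHR alone and 6.95% for both together. An E2F match was found in 5 of the 25 (20%), against 0.813% of all windows. TATAAA, the TATA box, was found in 0 of the 25 and in 13.6% of all windows. Of the 10 windows of the G1 genes, 4 held CCAAT (40%) and 0 held the CHR or E2F letters. Such matches describe the letters in these windows and are not measured binding sites.

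Of the 34 measured members, 1 was higher in Ad-Lkb1 and 1 lower past the threshold, against 4.78% and 3.92% of all features (8.7% in all). An unadjusted p under 0.05 was reached by 4 of the 34, against 29.3% of all features. None of these shares of the members exceeded that of features in general. The higher gene was the CDK inhibitor Cdkn1a and the lower one the G1 kinase Cdk4. None of the replication and mitosis genes passed. All 25 had a ratio above 0 on arrays 1 and 2 and below 0 on array 3, a pattern held by 9.93% of all features. The same pattern was seen in 26 of all 34 members. A ratio above 0 on all 3 arrays was held by 3 members (24% of all features), a ratio below 0 on all 3 by 3 (27.7%), and the reverse pattern by 1, Cdkn2c (9.24%). For Mad2l1 the ratio on array 1 was only 0.00051, so its sign there carries no information. In each of the 25 the SD over arrays exceeded the size of the mean, and their adjusted p ran from 0.295 to 0.900 (limma), so none of the means differed from 0 beyond the spread between arrays.

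**Figure D1:**
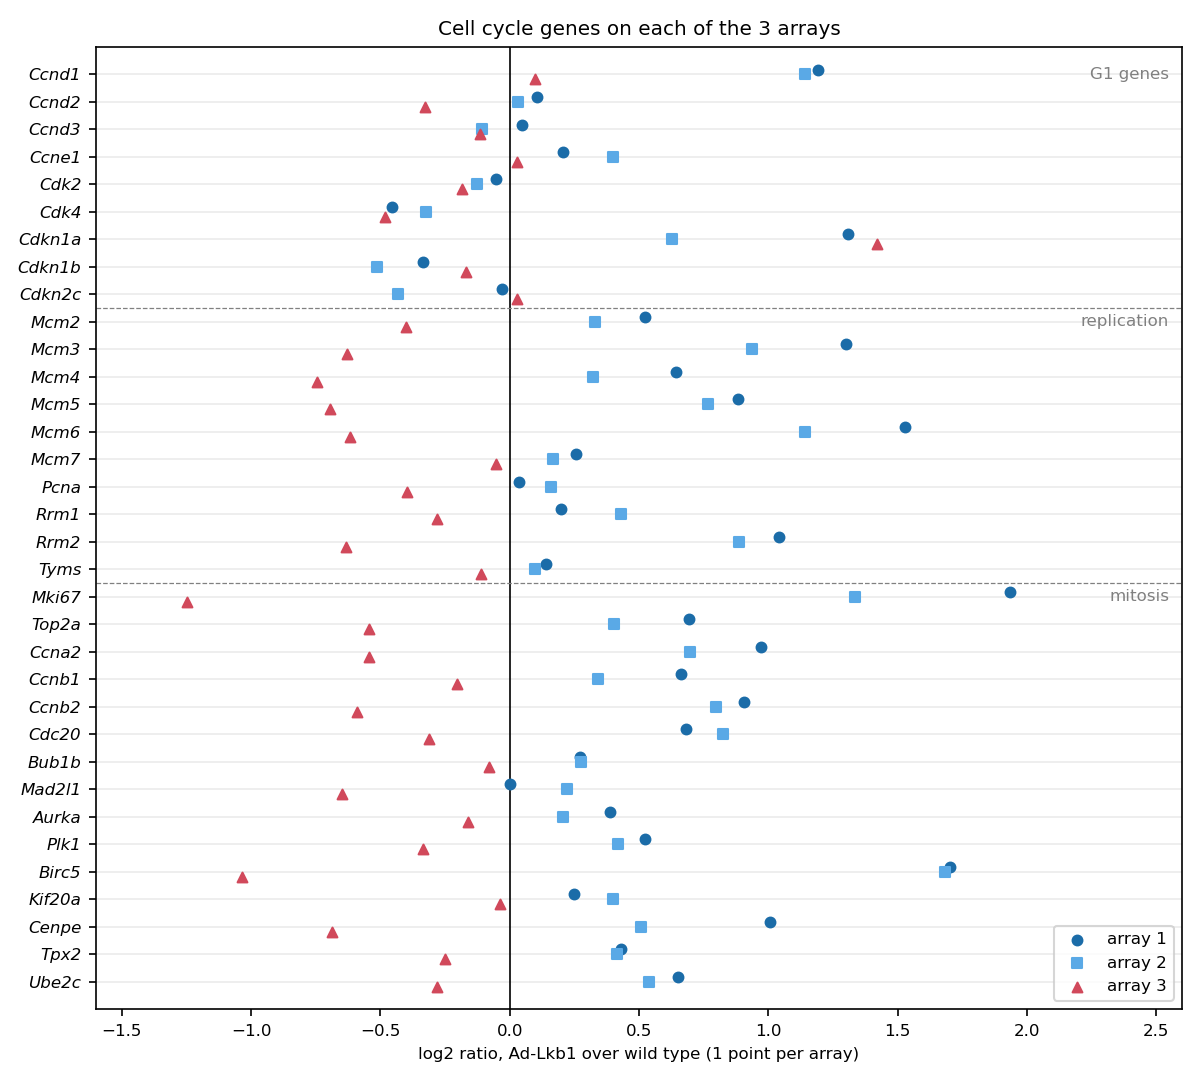
Log2 ratio, Ad-Lkb1 over wild type, (x axis) for each of the 34 measured cell cycle genes (rows, grouped by role), with 1 point per array. Array 3 lies left of arrays 1 and 2 throughout the replication and mitosis rows, while Cdkn1a lies right of 0 and Cdk4 left of 0 on all 3 arrays.

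Cdkn1a, which encodes the CDK inhibitor p21, had ratios of 1.31, 0.63 and 1.42. It was higher in Ad-Lkb1 on each array, by 2.17-fold in the mean (log2 1.12 ± 0.43, SD, n = 3; limma adjusted p = 0.0366). Its log2 level was 10.1, 10.5 and 9.90 in the wild-type samples and 11.4, 11.2 and 11.3 in the Ad-Lkb1 samples, and these did not overlap. The probe sits on the array as 10 spots, whose ratios on an array had an SD of 0.042, 0.041 and 0.027, so the gap between array 2 and the other arrays exceeded the spread of its spots. Its log2 ratio was 1.02 without array 1 (adjusted p = 0.188) and 1.36 without array 2 (adjusted p = 0.0878), no longer past the threshold, and 0.97 without array 3, still past it (adjusted p = 0.0455). The call was also lost with median centring (log2 0.41, adjusted p = 0.0786), with the deposited table (adjusted p = 0.0552) and with no filter on dim probes (adjusted p = 0.0802), in the same direction.

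Cdk4, the kinase partner of the D-type cyclins, had ratios of -0.46, -0.33 and -0.48. It was lower on each array, with wild type 1.34-fold above Ad-Lkb1 in the mean (log2 -0.42 ± 0.083, SD, n = 3; limma adjusted p = 0.0423). Wild-type log2 levels of 10.1, 10.0 and 10.1 lay above Ad-Lkb1 levels of 9.69, 9.70 and 9.60 with no overlap. The other kept probes of Cdk4 were lower too, at -0.72, -0.48 and -0.38 for one and -0.50, -0.43 and -0.50 for the other. The call was lost without any 1 of the arrays (log2 -0.47 to -0.39, adjusted p = 0.0817 without array 3 and up to 0.181) and under 5 of the 9 other ways of processing, all with the same direction.

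The other G1 genes did not pass the threshold. Ccnd1, the cyclin D1 gene, had ratios of 1.19, 1.14 and 0.096, above 0 on all arrays but near 0 on array 3 (mean 0.81 ± 0.62, SD, n = 3; limma adjusted p = 0.116). Without array 3 it passed, at a log2 ratio of 1.17 (adjusted p = 0.00798). Its relatives differed from it: Ccnd2 had ratios of 0.10, 0.032 and -0.33, and Ccnd3 had 0.047, -0.11 and -0.11. Ccne1, which encodes the cyclin E that starts replication, had 0.21, 0.40 and 0.029 (adjusted p = 0.235). Its kinase Cdk2 had -0.055, -0.13 and -0.19 (adjusted p = 0.328).

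Among the inhibitors, Cdkn1b, which encodes p27, had ratios of the opposite sign to Cdkn1a. They were -0.33, -0.51 and -0.17, and its adjusted p was the lowest among the members that did not pass (mean -0.34 ± 0.17, SD, n = 3; limma adjusted p = 0.0974). Cdkn2c, which encodes the CDK4 and CDK6 inhibitor p18, had -0.028, -0.43 and 0.028 (adjusted p = 0.478), so only array 2 stands off 0. Over the 9 G1 genes the median ratio was 0.047, -0.11 and -0.11, and 1 of the 9, Ccnd2, had the pattern of the replication genes.

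The MCM genes, which encode the subunits of the helicase that opens DNA at replication origins, shared the order of signs. Mcm6 had the widest swing of them, with ratios of 1.53, 1.14 and -0.62 (mean 0.68 ± 1.14, SD, n = 3; limma adjusted p = 0.383). Mcm3 had 1.30, 0.94 and -0.63. For Mcm5 the ratios were 0.88, 0.77 and -0.70. All of these were higher in Ad-Lkb1 on arrays 1 and 2 and lower on array 3. Mcm4 had 0.64, 0.32 and -0.75, and Mcm2 had 0.53, 0.33 and -0.40. Mcm7 had the same signs in a narrow range, at 0.26, 0.17 and -0.051. The median over the 6 genes was 0.76, 0.55 and -0.62.

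The genes that feed or clamp the polymerase spanned a wide range. Rrm2, the regulated subunit of ribonucleotide reductase, had ratios of 1.04, 0.89 and -0.63. Rrm1, the large subunit of the same enzyme, had 0.20, 0.43 and -0.28. The 2 subunits share signs and differ in size on each array. Tyms, which makes thymidylate, had 0.14, 0.096 and -0.11. Pcna, the sliding clamp, had 0.037, 0.16 and -0.40, with most of its departure from 0 on array 3. Tyms and Pcna thus lay close to 0 on arrays 1 and 2.

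Of the proliferation markers, Mki67, whose protein Ki-67 coats mitotic chromosomes, had ratios of 1.94, 1.34 and -1.25 (mean 0.67 ± 1.69, SD, n = 3; limma adjusted p = 0.556). A second kept probe of Mki67 gave 1.88, 1.51 and -1.32. Birc5, which encodes the survivin subunit of the chromosomal passenger complex, had 1.70, 1.69 and -1.04 (adjusted p = 0.462). These were the widest swings among the members. A second probe of Birc5 gave a smaller swing of 0.43, 0.40 and -0.46 with the same signs. Top2a, the topoisomerase that untangles sister chromatids, had 0.69, 0.40 and -0.54.

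Cyclins and kinases of mitosis repeated the signs. Ccna2 (cyclin A2) had 0.97, 0.70 and -0.54. The B-type cyclin Ccnb2 had 0.91, 0.80 and -0.59, and Ccnb1 had 0.66, 0.34 and -0.21. Among the kinases, Plk1 had 0.52, 0.42 and -0.33 and Aurka had 0.39, 0.21 and -0.16. Both drive centrosome maturation and spindle assembly.

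The anaphase-promoting complex and the spindle checkpoint were represented by its activator Cdc20 (0.68, 0.83 and -0.31), its ubiquitin-conjugating enzyme Ube2c (0.65, 0.54 and -0.28) and the checkpoint genes Bub1b (0.27, 0.28 and -0.078) and Mad2l1 (0.00051, 0.22 and -0.65). The second probes kept the signs for Ube2c (0.77, 0.56 and -0.41) but not for Mad2l1 (-0.12, 0.19 and -0.04). Mad2l1 is therefore the weakest case of the pattern. Of the spindle genes, the kinetochore motor Cenpe had 1.01, 0.51 and -0.69. Tpx2, which activates Aurora A on the spindle, had 0.43, 0.42 and -0.25, and the motor Kif20a had 0.25, 0.40 and -0.039.

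Over all 25 genes of replication and mitosis the median ratio was 0.65 on array 1, 0.42 on array 2 and -0.40 on array 3. Array 3 lay below the mean of arrays 1 and 2 in all 25, by a median of 0.88 (log2 difference of -0.88, range -2.88 to -0.23). Over all features that difference had a median of 0.011, and 2.84% of features had one at or below -0.88. Across the 25 genes, ratios correlated at r = 0.92 between arrays 1 and 2, at -0.79 between arrays 1 and 3 and at -0.74 between arrays 2 and 3. Over all 34 members the correlations with array 3 were weaker, at -0.28 and -0.36 (0.92 between arrays 1 and 2). Over all features they were 0.73, 0.36 and 0.50 in the same order of pairs (arrays 1 and 2, 1 and 3, 2 and 3). The 25 were grouped with their values known. These are correlations across genes, which are not independent replicates, and probes on an array share its labelling and depth.

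**Figure D2:**
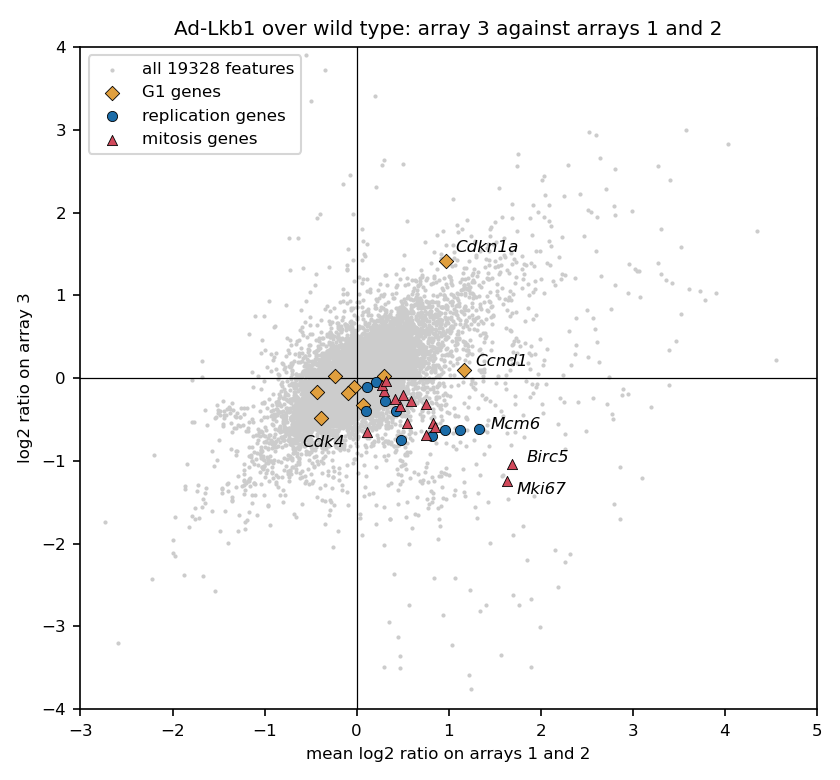
Log2 ratio on array 3 (y axis) against the mean log2 ratio of arrays 1 and 2 (x axis), with all features as the grey background and the 34 measured members as coloured points by group. The replication and mitosis genes fall in the lower right, with Mki67 and Birc5 farthest out, while Cdkn1a lies upper right and Cdk4 lower left.

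Levels in each channel show which sample of a pair stood out on array 3. These are log2 levels after loess and a scaling of average intensity between arrays, meant for comparing 1 probe across arrays within a channel. Where wild-type levels are set against Ad-Lkb1 levels, here and for Cdkn1a and Cdk4, the comparison also crosses dyes, with all arrays in 1 dye orientation. Mki67 had wild-type levels of 6.09, 6.53 and 8.67 and Ad-Lkb1 levels of 8.03, 7.86 and 7.42. Birc5 had wild-type levels of 6.39, 6.16 and 8.46 beside Ad-Lkb1 levels of 8.09, 7.85 and 7.42. In both, the wild-type sample of array 3 was above every Ad-Lkb1 sample and the other wild-type samples were below them. Mcm6 had 7.76, 7.90 and 9.34 in wild type against 9.29, 9.05 and 8.72 in Ad-Lkb1. For Ccnb2 the levels were 6.25, 6.30 and 7.60 in wild type and 7.16, 7.10 and 7.01 in Ad-Lkb1. Ccnd1, from the G1 set, had 7.24, 7.12 and 7.73 in wild type and 8.43, 8.26 and 7.83 in Ad-Lkb1, with no overlap.

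The wild-type level was highest on array 3 in all 25 genes of replication and mitosis, which holds for 29.7% of all features. It lay above the mean of the other wild-type samples by a median of 0.758 (range 0.188 to 2.36). In 21 of the 25 it was above every Ad-Lkb1 sample, a comparison across dyes in genes grouped with their values known. The share of all features was not computed for that count. The Ad-Lkb1 level was lowest on array 3 in 21 of the 25, which holds for 39.3% of all features, and its shift there was smaller, with a median of -0.189 (range -0.546 to 0.016). The range over samples was wider in wild type than in Ad-Lkb1 in all 25, against 59% of all features, with median ranges of 0.809 and 0.255. The wild-type samples of arrays 1 and 2 differed from each other by at most 0.434. Without the scaling between arrays the median shifts were 0.851 and -0.115. Of the 9 G1 genes, 2 had their highest wild-type level on array 3.

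**Figure D3:**
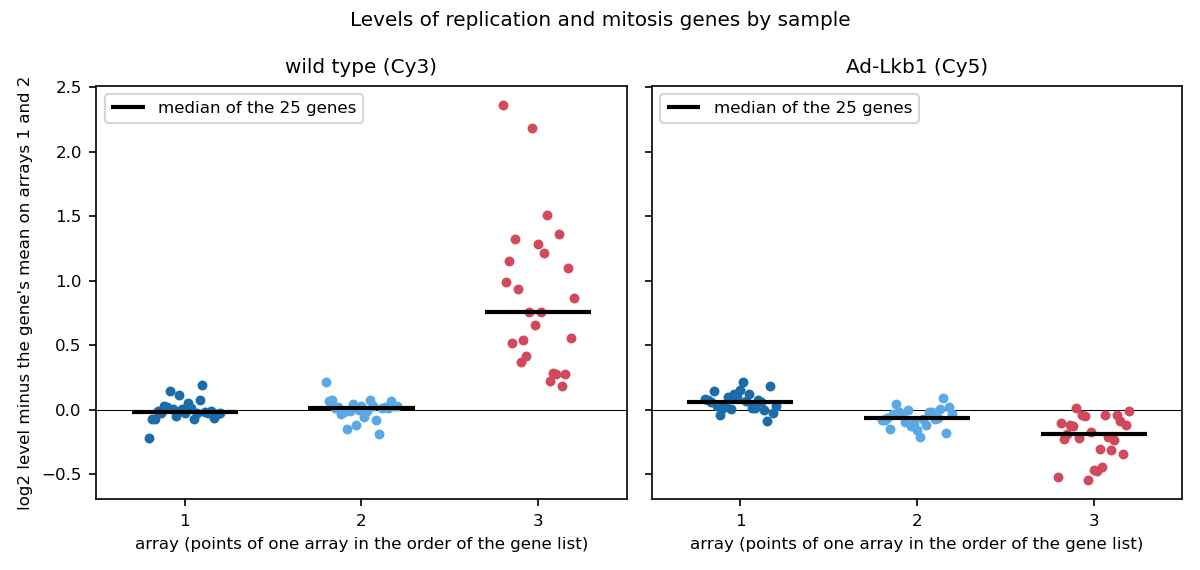
Log2 level minus the gene's mean on arrays 1 and 2 (y axis) by array (x axis) for the 25 replication and mitosis genes, in 1 panel per genotype, with 1 point per gene and a bar at the median. The wild-type levels of array 3 lie above those of arrays 1 and 2, and the Ad-Lkb1 levels differ less between arrays.

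Low signal touches part of this. Both channels were well above background on all 3 arrays for 27 of the 34 measured members. The other 7 (Top2a, Ccna2, Ccnb1, Bub1b, Cenpe, Tpx2 and Plk1) were kept through the Ad-Lkb1 channel. In 6 of them the wild-type sample was well above background on array 3 only, and Plk1 was on arrays 2 and 3, so their wild-type signal on the remaining arrays was not well above background. Of the 27 members well above background in both channels throughout, 19 had the pattern and 20 had the highest wild-type level on array 3. These include 18 genes of replication and mitosis, which all had both, as members of a group formed with the values known. The other 5 members have no ratio here. Ccne2, Cdk1, Bub1 and Aurkb were well above background on 0 arrays in either channel, and Kif11 was on 1 array in the wild-type channel.

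The pattern also bore on the calls. Without array 3, 13 members were higher in Ad-Lkb1 past the threshold, against 6.89% of all features in the same fit. Array 3 was singled out from these same values, and only arrays 1 and 2 remain in that fit. The count therefore restates the pattern and is no separate support for it. For 2 of the 13, Ccna2 and Cenpe, the wild-type signal was well above background on array 3 alone, the array left out, and they were kept through the channel in which they were higher. Besides Cdkn1a and Ccnd1 they were Mki67, Birc5, Ccna2, Ccnb2, Cdc20, Ube2c, Cenpe, Rrm2, Mcm3, Mcm5 and Mcm6, with log2 ratios such as 1.64 for Mki67, 1.69 for Birc5 and 1.34 for Mcm6. Without array 1 or without array 2 none was past it, nor was any feature of the array (0 in limma at an adjusted p of 0.05, with 3929 and 3563 at an unadjusted p under 0.05).

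Another normalization changed the signs of some members. Centring each array on its median in place of loess gave all features a median log2 ratio of -0.42, and the members are to be read against that. Mad2l1, Mcm4, Mcm7, Pcna and Rrm1 then lay below 0 on arrays 1 and 2 as well, and 20 of the 25 kept the pattern, against 4.55% of all features. Array 3 stayed below the mean of arrays 1 and 2 in all 25 under that setting and each other setting with all arrays and the filter on dim probes.

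Other genes of the pathway were taken from lists chosen with earlier results of these data known. Their calls, and those of the marker lists below, are to be read against the shares of all features. With all arrays, 4.78% of features were higher and 3.92% lower. Without array 3, 6.89% were higher and 720 of 19328 lower. Counts without array 3 leave out an array singled out from these same data. Of 21 genes of the E2F, retinoblastoma and MuvB machinery, 19 were measured, 1 was higher and 1 lower. The higher one was Myc, a growth-promoting transcription factor (mean log2 ratio 0.81, limma adjusted p = 0.0231). The lower one was Rb1, which encodes the retinoblastoma protein (mean -0.63, adjusted p = 0.0214). The list's medians were 0.13, 0.043 and -0.11, and 5 of the 19 had the pattern (9.93% of all features). Of 18 other cyclins and CDK genes, 15 were measured and 1 was lower, the CDK4 and CDK6 inhibitor Cdkn2d (mean -0.53, adjusted p = 0.0354). Myc, Rb1 and Cdkn2d also passed without array 3.

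Of 43 other DNA replication genes, 38 were measured, with medians of 0.16, 0.19 and -0.19, and 18 had the pattern (9.93% of all features). The clamp loader subunit Rfc4 was higher (mean 0.60, adjusted p = 0.0344) and Rpa3, of the single-strand binding complex, was lower (mean -0.66, adjusted p = 0.0387). Neither passed without array 3 (adjusted p = 0.0553 and 0.0540), where 5 others were higher (6.89% of all features). Of 50 other mitosis genes, 28 were measured, with medians of 0.34, 0.37 and -0.30. None of the 28 passed the threshold in limma (4 at an unadjusted p under 0.05). The pattern was held by 20 (9.93% of all features), and 24 had their highest wild-type level on array 3 (29.7% of all features). Without array 3, 7 of the 28 were higher (6.89% of all features). Kif23, Pbk, Prc1, Cdca5, Ect2, Shcbp1, Nusap1 and Cdca8 were kept through the Ad-Lkb1 channel, with wild type not well above background on every array. All of them but Kif23 had the pattern. Mitosis genes beyond the members thus held the array 3 pattern too, in a list chosen with earlier results known.

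Of 18 targets of p53, the factor that induces Cdkn1a after DNA damage, 17 were measured and 3 were higher. Aen, a nuclease gene, had ratios of 0.77, 0.77 and 0.86 (adjusted p = 0.0147). Mdm2, the p53 inhibitor, had a mean of 0.85 (adjusted p = 0.0234) and Gadd45a, a stress sensor, had 0.67 (adjusted p = 0.0300). The other 14 did not pass. Among them Bbc3 (mean -0.68), Phlda3 (-0.54), Trp53inp1 (-0.35), Sesn1 (-0.35) and Bax (-0.16) were below 0 on all 3 arrays. Plk2 (0.32), with wild type well above background on 0 arrays, was above 0 on all 3. A link of these targets to the Cdkn1a ratio was not tested. Without array 3 these 3 still passed, and the list had 6 higher (6.89% of all features) and 1 lower. The list's medians were 0.29, 0.53 and -0.22, below 0 on array 3.

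Some lists of markers of other cell types shared the wild-type shift on array 3 and others did not. Its median was 0.69 for macrophage, 0.64 for lymphocyte and 0.28 for fibroblast and progenitor markers. It was 0.02 for mast cell and neutrophil, -0.10 for endothelial, -0.13 for brown adipocyte and -1.395 for muscle markers. The part of these cell types in the members' ratios was not tested. Of 22 macrophage markers 20 were measured and 9 were higher in Ad-Lkb1 (4.78% of all features). The lowest p values belonged to Trem2 (mean log2 ratio 3.39), Ms4a7 (3.04), Clec4d (2.35) and Gpnmb (2.66), with adjusted p of 0.0105 to 0.0157. Clec4d and Gpnmb met the filter only by their Ad-Lkb1 signal, the side called higher. Just 1 wild-type sample for Clec4d, and 2 for Gpnmb, had a signal well above background. Without array 3 all 9 still passed, among 16 that were higher (6.89% of all features). The list's medians were 1.71, 2.21 and 0.56, above 0 on array 3 too. Their summed linear level was 4839, 4297 and 9090 in wild type and 15550, 16150 and 14010 in Ad-Lkb1, so the wild-type sample of array 3 was the highest of its genotype. Cd163 was well above background on no array.

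Of 19 lymphocyte markers 12 were measured, with medians of 0.49, 0.44 and -0.47, the same order of signs as the replication genes. Their summed level was 1555, 1532 and 2566 in wild type and 1803, 1836 and 1760 in Ad-Lkb1. Of the B cell markers, Ms4a1 and Cd79a were well above background on 0 arrays, while Cd79b was measured, with ratios of 0.16, 0.33 and -0.57. Il7r, a receptor of T cells, passed the threshold (mean 0.98, adjusted p = 0.0299), and without array 3 it was 1 of 5 that were higher (6.89% of all features). Its wild-type signal was well above background on 0 arrays, so it was kept through the Ad-Lkb1 channel. Interferon-induced genes had medians of 2.92, 2.40 and -0.06 over 19 measured of 21. All 19 of them had their highest wild-type level on array 3 (29.7% of all features). Oas2 (mean 1.43, adjusted p = 0.0270) and Oasl1 (mean 2.65, adjusted p = 0.0372) were higher, and without array 3, 17 were (6.89% of all features). Their wild-type sums were 3701, 3545 and 17240, and their Ad-Lkb1 sums 26930, 17170 and 13170. Immediate early genes, which respond within minutes to stress or handling, had wild-type sums of 9578, 6917 and 26750 and Ad-Lkb1 sums of 34230, 38320 and 24490. Jund (mean 1.33, adjusted p = 0.0250) and Atf3 (mean 2.88, adjusted p = 0.0356) were the 2 higher of 14 measured, and without array 3, 10 were (6.89% of all features).

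The array 3 wild-type sample thus stood apart in several gene groups besides the cell cycle. The summed level of the 34 members was 9954, 10380 and 12600 in wild type and 13350, 12280 and 11750 in Ad-Lkb1. Fibroblast and adipocyte progenitor markers had wild-type sums of 18200, 16080 and 22540, and 5 of 12 were higher in Ad-Lkb1, led by Lum (2.83-fold), Col3a1 (mean log2 ratio 1.17), Col1a1 (0.74) and Col1a2 (1.01), with adjusted p of 0.0105 to 0.0342. All 5 passed without array 3. Of 14 endothelial markers, all measured, Vwf was higher (mean 0.40, adjusted p = 0.0408) and Kdr lower (mean -0.42, adjusted p = 0.0400), and neither passed without array 3. Of 15 mast cell and neutrophil markers 9 were measured, with 5 higher and 1 lower. The higher ones were led by Mcpt4 (mean 1.47), Cpa3 (0.99), S100a8 (2.17) and Cma1 (0.66), with adjusted p of 0.0105 to 0.0354. The lower one was Kit, with ratios of -1.12, -0.75 and -1.77 (mean -1.215, limma adjusted p = 0.0421). Of those 6 calls, 5 passed without array 3. In wild type, Cma1 was well above background on 0 arrays and Cpa3 on 2, so both were kept through the Ad-Lkb1 channel, in which they were higher. Brown adipocyte markers, by contrast, had medians of 0.18, 0.17 and 0.47, without a turn of sign on array 3. Of 16, 5 were higher, led by Ucp1, Dio2 (mean 2.07), Cox7a1 (0.96) and Cidea (0.55), with adjusted p of up to 0.0303, and 4 of the 5 passed without array 3. Among those that did not pass, Lipe (mean -0.38), Ebf2 (-0.29) and Plin1 (-0.26) were below 0 on all 3 arrays. Fabp4 (0.48) and Cox8b (0.38) were above 0 on all 3, and Ppargc1a had ratios of -0.94, 0.13 and 1.98. Muscle markers had medians of -1.34, 2.17 and 2.16, where array 1 and not array 3 differed, and 0 of 13 passed in limma (1 at an unadjusted p under 0.05). The source of the array 3 sample's difference was not tested.

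**Figure D4:**
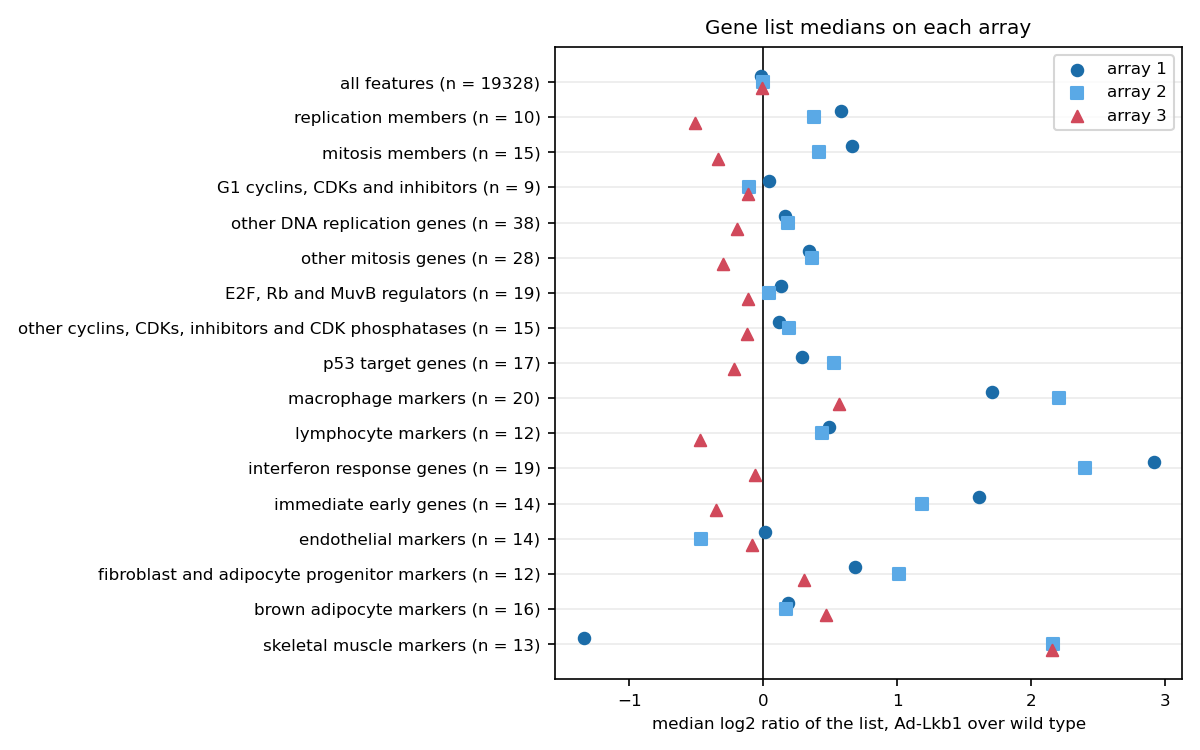
Median log2 ratio, Ad-Lkb1 over wild type, (x axis) on each array for the members' groups, the other cell cycle lists and the marker lists (rows). Arrays 1 and 2 lie right of 0 and array 3 left of 0 for the replication and mitosis groups. The same holds for the other cell cycle lists, p53 targets, lymphocyte markers, interferon response genes (array 3 near 0) and immediate early genes. Macrophage, fibroblast and progenitor, and brown adipocyte markers stay right of 0 on all 3 arrays.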

How the data were processed

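Per the file headers, the deposited scanner files hold median spot and background intensity in 2 channels, and the red over green ratio as log10, from the authors' run of Agilent Feature Extraction, which the submitters' processing notes give as version 11.5. The deposited file of array 1 also holds a stray statistics line, which was left out. The deposited log10 table matched the scanner ratio by feature number (correlation 1, medians 0), which settles its scale, centring and direction. Ratios were computed from the median signals in R 4.3.3 with limma 3.58.1: normexp background correction (offset 50), loess within arrays with control spots at weight 0, outlier spots left out, and spots of a probe averaged. Of 55681 probes, 25031 were kept, a probe being kept where at least 0.5 of its spots were well above background in the same channel on all 3 arrays. Of 29796 probes with a RefSeq accession, 28026 matched 1 current symbol. The mean log2 ratio was tested against 0 with limma's moderated test and Benjamini-Hochberg adjustment over 19328 features. Only probes with a ratio on all 3 arrays entered the fit. The number of arrays limits the precision. Every member is accounted for, and of each other list the genes past the threshold are named, up to the 4 with the smallest p. Kit is named beyond these as the only lower gene of its list. Members and lists were chosen with earlier results of these data known, and the filter on either channel was added after seeing the data.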

Additional observations from a re-analysis of the deposited data

How the results depend on the processing

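Of 19328 features, 1681 passed the threshold. Median centring gave 10097, the software's processed signals gave 1113, the deposited value table gave 810 and no filter gave 1033, and the count ran from 0 to 2052 without 1 array. The share of calls that were higher was 54.9%, against 3.85% with median centring, 79.3% with processed signals and 65.4% with the deposited table. Members higher numbered 1, and 0 with median centring, the deposited table or no filter (0 to 13 without 1 array). Members lower numbered 1, 8 with median centring, and 0 with an offset of 10, no background subtraction, with processed signals, with the deposited table, with a variance trend or without any 1 array. Cdk4 stayed below 0 in all 10 settings (-1.12 to -0.32) and passed in 5, and Cdkn1a stayed above 0 (0.41 to 1.37) and passed in 7.

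The members' median over arrays was 0.20, against 0.80 with processed signals and 0.68 with the deposited table (0.041 to 0.46 without 1 array). It was 0.40 with no background subtraction, 0.43 with an offset of 10 and, turned in sign, -0.071 with median centring. On array 1 it was 0.52, against 1.03 with an offset of 10, 1.43 with processed signals and 1.46 with the table. On array 2 it was 0.40, against 1.41 with processed signals and 1.22 with the table. On array 3 it was -0.32 and ran from -0.74 with median centring to -0.28 with no filter. The difference of array 3 from the others was -0.73, against -1.38 with an offset of 10, -1.23 with no subtraction, -1.64 with processed signals and -1.76 with the table.

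Signs of mean ratios that did not pass turned as follows. Median centring gave -0.26 for Ccne1, -0.062 for Aurka, -0.062 for Mcm2, -0.50 for Mcm4, -0.0040 for Mcm5, -0.55 for Mcm7, -0.52 for Rrm1, -0.053 for Tyms and -0.0071 for Ube2c. Ccnd2 was 0.0048 without background subtraction and 0.041 with processed signals, which also gave 0.16 for Ccnd3, 0.035 for Cdkn2c and 0.14 for Pcna. The table gave 0.040 for Ccnd3 and 0.014 for Pcna. Without 1 array the range was -0.071 to 0.55 for Top2a, -0.036 to 0.43 for Mcm2, -0.21 to 0.48 for Mcm4, -0.0074 to 0.12 for Tyms, -0.088 to 0.76 for Cenpe, -0.041 to 0.31 for Rrm1, -0.15 to 0.068 for Ccnd2, -0.32 to 0.11 for Mad2l1 and -0.18 to 0.099 for Pcna. Fits without 1 array have fewer samples; the cause of the other changes was not tested. No paired analysis was possible because each ratio already pairs 2 samples within an array, which leaves 1 group. Signal close to background limits the ratios of the members kept through the Ad-Lkb1 channel.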
